A study of Homo sapiens with 4 samples.

Results

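The 8 genes described here encode the cyclin-dependent kinase (CDK) inhibitors and a phosphatase that shares their gene name: CDKN1A, CDKN1B, CDKN1C, CDKN2A, CDKN2B, CDKN2C, CDKN2D and CDKN3. They were chosen by gene symbol, with earlier results of these data known. They make up 8 of the 57820 gene rows counted in each library. RNA-seq was carried out in SY5Y, an established human neuroblastoma line that the labels give as MYCN wild type, 12 h after treatment. One group of 2 libraries received the vehicle DMSO and the other group of 2 libraries received 3 µM of the compound that the labels name SGSS05-NS. The study calls the compound of this experiment SGSS05-NS3 and describes that as a covalent inhibitor of SETD8 (gene symbol KMT5A), the enzyme that places a single methyl group on lysine 20 of histone H4 and also methylates p53. The study also reports that SGSS05-NS3 inhibited other lysine and arginine methyltransferases at low micromolar concentrations. The part of each target in the changes described here was not tested. All 4 libraries come from this 1 line, with 1 dose and 1 time, so no value here describes another line, and loss of part of the cells cannot be told apart from a change of RNA per cell. The labels call the libraries replicates and the study calls them biological replicates, and the p-values measure the spread between these libraries.

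Cells divide when cyclins bind and switch on CDKs, which phosphorylate the retinoblastoma protein RB and so release the E2F factors that drive genes of DNA replication. The CIP/KIP proteins, p21 (CDKN1A), p27 (CDKN1B) and p57 (CDKN1C), bind cyclin-CDK complexes of several kinds, whereas the INK4 proteins, p16 (CDKN2A), p15 (CDKN2B), p18 (CDKN2C) and p19 (CDKN2D), bind CDK4 and CDK6 alone. CDKN1A is the best known transcriptional target of p53, and CDKN2A also encodes ARF, a protein from another reading frame that protects p53 from MDM2. CDKN3 is of neither family: it is a phosphatase that removes the activating phosphate of CDK2 and is itself transcribed mostly in dividing cells. The comparison asks which of these genes moved with SGSS05-NS, and whether the signal of growth arrest in this class of genes was carried by CDKN1A alone.

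The promoters of CDKN1A, CDKN2B and CDKN3, the 3 genes with the largest log2 fold changes in size, are shown because they differ in the short motifs they hold. The sequences are from RefSeq (GRCh38.p14), cover 250 bases before to 50 bases after the start of the gene, and run 5′ to 3′ on the strand of the gene. Capitals mark GGGCGG (the GC box bound by SP1), CCAAT (the CCAAT box) and TTTGAA (the cell cycle homology region of genes repressed outside the cell cycle), each searched on both strands, so that a match on the other strand appears as its reverse complement.
CDKN1A chr6:36678464-36678763 (+): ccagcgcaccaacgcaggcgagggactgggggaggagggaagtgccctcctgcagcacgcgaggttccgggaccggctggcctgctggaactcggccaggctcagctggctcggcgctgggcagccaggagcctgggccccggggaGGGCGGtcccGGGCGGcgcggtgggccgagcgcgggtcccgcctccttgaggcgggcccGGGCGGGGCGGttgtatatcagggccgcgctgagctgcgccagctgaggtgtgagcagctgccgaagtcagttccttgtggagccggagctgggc
CDKN2B chr9:22009256-22009555 (-): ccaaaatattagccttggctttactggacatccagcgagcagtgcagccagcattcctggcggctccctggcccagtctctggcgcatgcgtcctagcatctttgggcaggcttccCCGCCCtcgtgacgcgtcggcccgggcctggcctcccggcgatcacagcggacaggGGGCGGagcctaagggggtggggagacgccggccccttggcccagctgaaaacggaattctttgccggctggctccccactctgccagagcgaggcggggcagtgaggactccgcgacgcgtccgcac
CDKN3 chr14:54396757-54397056 (+): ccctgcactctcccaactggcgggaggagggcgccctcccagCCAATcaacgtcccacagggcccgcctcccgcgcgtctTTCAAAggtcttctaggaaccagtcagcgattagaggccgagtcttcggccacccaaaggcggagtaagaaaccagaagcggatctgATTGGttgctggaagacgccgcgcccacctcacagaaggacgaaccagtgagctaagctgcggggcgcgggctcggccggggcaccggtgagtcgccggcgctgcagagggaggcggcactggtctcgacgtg
The CDKN1A window held 4 GC boxes, 2 of which overlap, with a GC content of 74.3%. The CDKN2B window held 2 GC boxes. The CDKN3 window held 2 CCAAT boxes and 1 TTTGAA but no GC box. GGGCGG was found in 45.0% of 35116 RefSeq promoter windows, CCAAT in 34.6% and TTTGAA in 15.2%, so these matches are common. The same search found 3 CCAAT boxes and 1 GC box in the CDKN1B window, and CACGTG, an E-box held by 7.26% of windows, in 2 of the 3 CDKN2C windows. Other genes with smaller log2 fold changes in size held GC boxes too. CDKN2C had 0, 6 and 1 in its 3 windows, CDKN2A had 0 and 2 in its windows, and CDKN2D had 3. The number of GC boxes thus did not follow the size of the change. TATAAA, which 11.5% of windows hold, was in no window of the 7 genes that have one in this table, and an E2F motif, spelled TTTGGCGC, TTTCGCGC, TTTCCCGC or TTTGCCGC and present in 3.31% of windows, was in none of these windows either. The table used has no CDKN1C window.

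The paired decamer bound by p53 (the consensus RRRCWWGYYY, found as 2 copies with a spacer of 0 to 13 bases) was searched on GRCh37, the build of the counts, in the 5 kb before the start of 1 transcript of each gene. Except for CDKN1C and CDKN2B, this start lies inside the annotated span of the gene given with its values, which other transcripts extend. With no mismatch, none was found before the CDKN1A transcript and 1 was found before that of CDKN1B, against 0.633% of 19891 windows. A search that allowed up to 2 mismatches in a pair, none of them in its core letters, was added after this result was seen, and 25.4% of windows held such a match. It found 3 matches before CDKN1A, 2 of which share a decamer, and 2 before CDKN2C. Before CDKN1B it found only the pair without mismatch, at chr12:12865315-12865343, 4987 bases before the transcript start. The match nearest to the CDKN1A transcript start used, chr6 position 36646491, lies 2265 bases before it at chr6:36644226-36644245, at the edge of the longer annotated span, with the decamers in capitals:
CDKN1A upstream: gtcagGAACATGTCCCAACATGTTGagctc
A match in letters describes the sequence only, and p53 binding was not measured in these libraries.

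CDKN1A was the only gene of the class past an adjusted p of 0.001 in the quasi-likelihood test, and it rose. CDKN1A (ENSG00000124762.9, GRCh37 chr6:36644237-36655114, + strand) was counted with 491 fragments in DMSO 1 and 358 in DMSO 2, against 11534 in SGSS05-NS 1 and 8799 in SGSS05-NS 2. Expressed as CPM, the count relative to a library size scaled with TMM factors, its level was 17.4 ± 3.00 in DMSO and 447 ± 103 in SGSS05-NS (SD, n = 2 each). Every SGSS05-NS library lay far above both DMSO libraries. The log2 fold change was 4.68 (SE 0.17, 95% interval 4.30 to 5.06), that is, 25.6-fold (19.7 to 33.3), with an adjusted p of 5.2e-09 from the edgeR quasi-likelihood test across 16468 genes. It had the 11th smallest p among genes that were higher and ranked 36 of all tested genes by log2 fold change. By level per kilobase of exon it stood at rank 6285 of 16042 genes in DMSO and at rank 183 in SGSS05-NS. At an adjusted p under 0.001 in the quasi-likelihood test, 14.5% of all tested genes changed, 6.37% higher and 8.14% lower. Of the 8 genes, 1 passed, so the number of genes that passed says nothing particular about the class. The study uses 0.001 with the likelihood ratio test of edgeR. Here that test called 4289 genes and 2 of the 8, CDKN1A and CDKN2B.

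**Figure D1:**
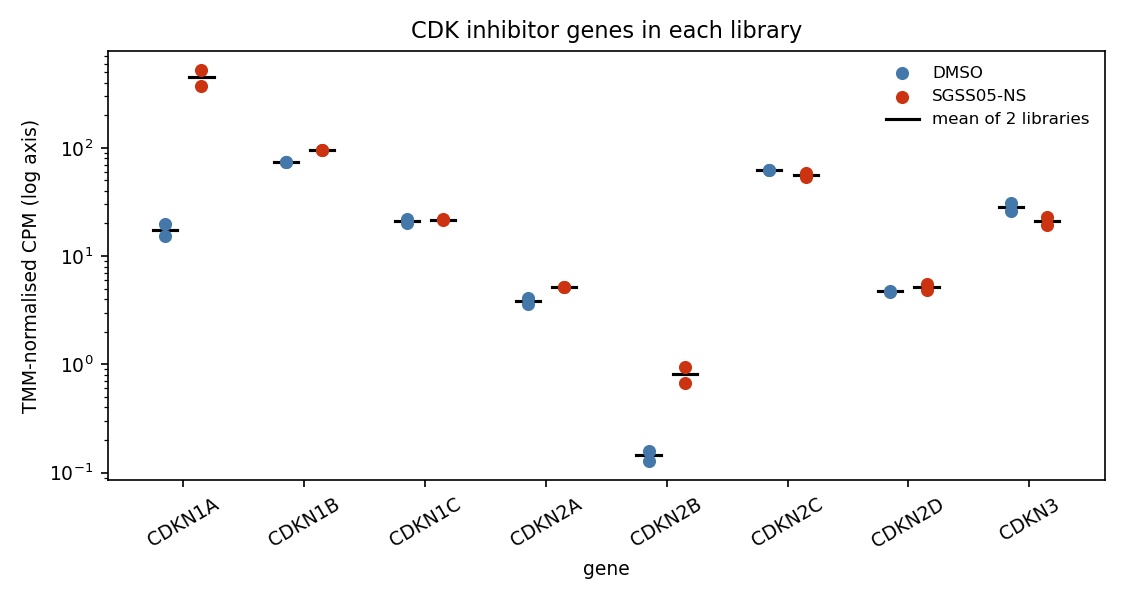
TMM-normalised CPM (log axis) of the 8 genes in each of the 2 DMSO and 2 SGSS05-NS libraries, with points for libraries and black lines for the mean of 2 libraries. CDKN1A moved from 17.4 to 447 CPM, and CDKN2B moved at the bottom of the axis, from 0.144 to 0.806 CPM.

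The other CIP/KIP genes moved little. CDKN1B (ENSG00000111276.6, chr12:12838432-12875303, + strand), which encodes p27, a protein mainly controlled by its degradation, had 1853 and 1742 fragments in DMSO and 2128 and 2233 in SGSS05-NS. Its level was 74.2 ± 0.502 CPM in DMSO and 95.4 ± 0.666 CPM in SGSS05-NS, with a log2 fold change of 0.36 (SE 0.09, 95% interval 0.17 to 0.56). Its adjusted p was 0.0062, which passes 0.05 but not the threshold of 0.001. CDKN1C (ENSG00000129757.8, chr11:2904443-2907005, - strand), an imprinted gene that encodes p57, had 557, 467, 477 and 517 fragments in DMSO 1, DMSO 2, SGSS05-NS 1 and SGSS05-NS 2. It was the only one of the 8 genes whose groups overlapped, at 21.1 ± 1.56 and 21.7 ± 0.346 CPM. Its log2 fold change was 0.04 (SE 0.12, adjusted p = 0.79), and the interval of its fold, 0.864 to 1.23, bounds any change to far less than that of CDKN1A. The groups did not overlap for the other 7 genes, but that held for 74.7% of all tested genes.

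Among the INK4 genes, the weakly expressed CDKN2B had the largest change. CDKN2B (ENSG00000147883.9, chr9:22002902-22009304, - strand), whose protein p15 is known as a target of TGF-beta signalling, was counted with 4 and 3 fragments in DMSO and with 15 and 22 in SGSS05-NS. Both SGSS05-NS libraries were above both DMSO libraries. The ratio of the summed, scaled counts was 5.60, with an exact binomial 95% interval of 2.46 to 14.9 that covers counting error only, and the log2 fold change was 2.44 (SE 0.47, 95% interval 1.41 to 3.47). The adjusted p was 0.0014, just above the threshold. CDKN2B passed the threshold with the likelihood ratio test of edgeR (adjusted p = 2.7e-05) and with no filter on low counts (4.5e-05), and its adjusted p reached 0.025 with DESeq2. At 0.806 CPM in SGSS05-NS it ranked 14968 of 16042 genes by level per kilobase, so it added little to the pool of inhibitor transcripts. The opposite strand of CDKN2B, where CDKN2B-AS1 lies, held 2, 2, 5 and 7 fragments, or 24.1% to 40.0% of those on both strands.

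CDKN2A (ENSG00000147889.12, chr9:21967751-21995300, - strand) lies next to CDKN2B and had 103 and 84 fragments in DMSO and 114 and 121 in SGSS05-NS. Its log2 fold change was 0.41 (SE 0.19, 95% interval 0.01 to 0.82, adjusted p = 0.089), and counts per gene cannot separate the p16 from the ARF transcript. CDKN2C (ENSG00000123080.6, chr1:51426417-51440306, + strand), which encodes p18, had 1558 and 1449 fragments in DMSO and 1292 and 1256 in SGSS05-NS. The log2 fold change of CDKN2C was -0.15 (SE 0.09, 95% interval -0.36 to 0.05, adjusted p = 0.20). CDKN2D (ENSG00000129355.6, chr19:10677136-10679735, - strand), which encodes p19, had 120, 108, 122 and 113 fragments in DMSO 1, DMSO 2, SGSS05-NS 1 and SGSS05-NS 2, with a log2 fold change of 0.13 (SE 0.18, 95% interval -0.27 to 0.53, adjusted p = 0.59). None of these 3 genes passed an adjusted p of 0.05, and the upper ends of their intervals lie far below the lower end of the interval of CDKN1A.

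CDKN3 (ENSG00000100526.15, chr14:54863567-54886936, + strand), the phosphatase gene, was the member with the clearest decrease in value. It had 780 and 608 fragments in DMSO and 511 and 451 in SGSS05-NS, or 28.6 ± 3.58 and 21.1 ± 2.72 CPM. The log2 fold change was -0.44 (SE 0.13, 95% interval -0.72 to -0.15) with an adjusted p of 0.017, past 0.05 but not past 0.001. The call at 0.05 was lost without DMSO replicate 1 (adjusted p = 0.12) and without SGSS05-NS replicate 2 (adjusted p = 0.091). At an adjusted p under 0.05, 4 of the 8 genes passed (CDKN1A, CDKN1B and CDKN2B higher and CDKN3 lower), beside 46.3% of all tested genes. The median log2 fold change of the 8 genes was 0.25, beside 0.01 over all tested genes.

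**Figure D2:**
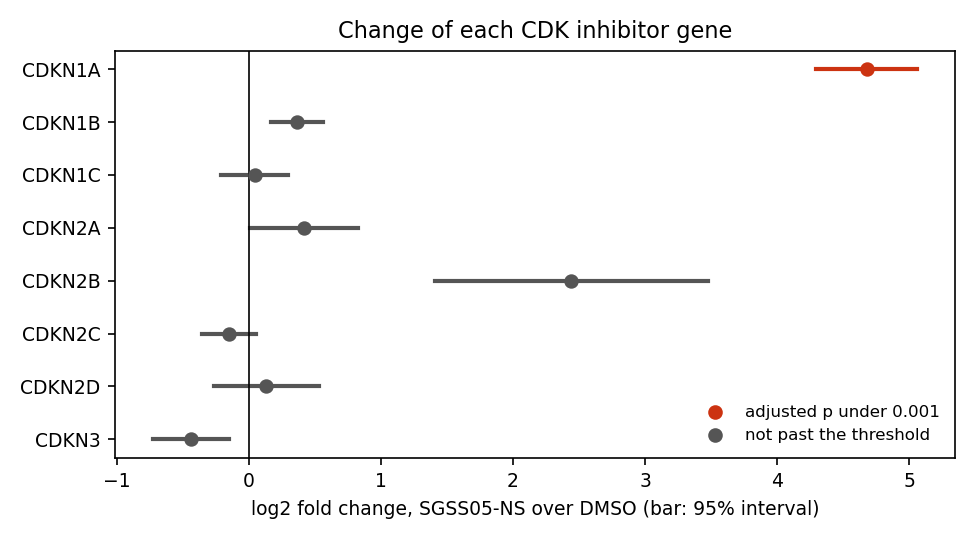
Log2 fold change of each of the 8 genes, SGSS05-NS over DMSO, with bars for the 95% interval and red for an adjusted p under 0.001. The interval of CDKN1A (4.30 to 5.06) overlaps that of no other gene, and that of CDKN2B (1.41 to 3.47) is the widest.

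To compare levels between genes, the CPM of each gene was divided by the kilobases of its annotated exons. In DMSO, the order of levels was CDKN2C at 20.6 CPM per kb, CDKN3 at 15.6, CDKN1C at 8.51, CDKN1B at 8.02, CDKN1A at 5.82, CDKN2D at 3.12, CDKN2A at 0.991 and CDKN2B at 0.036. CDKN1C and CDKN1B differed by less than the SD of CDKN1C (0.63), and the other neighbours in this order differed by more than their SDs. In SGSS05-NS, CDKN1A stood first at 149 CPM per kb (SD 34.4), followed by CDKN2C at 18.5. Dividing by the longest transcript in place of all exons left CDKN1A first in SGSS05-NS, at 197 CPM per kb, but changed the order of the others. In DMSO it put CDKN3 (26.7) above CDKN2C (21.4), CDKN1B (17.1) above CDKN1C (10.9) and CDKN2A (3.66) above CDKN2D (3.30). In SGSS05-NS it put CDKN1B and CDKN3 (19.7) above CDKN2C (19.2). The exon lengths come from GENCODE 44 lifted to GRCh37 and the counts from GENCODE 19, so the order of levels between genes is less certain than the changes within a gene.

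CDKN1A thus became most of the pool of CIP/KIP and INK4 transcripts. Among the 7 inhibitor genes, without CDKN3, the share of CDKN1A per length was 13.5% in DMSO 1 and 11.2% in DMSO 2, against 80.0% in SGSS05-NS 1 and 75.0% in SGSS05-NS 2. The mean share rose from 12.3% to 77.5%, a difference of 65.2 percentage points that was 61.0 with no division by length. With 2 libraries against 2, the exact two-sided permutation test gave p = 0.333, the smallest value this design allows. The share of CDKN2C, the leading inhibitor transcript in DMSO by level per length, went from 43.7% to 9.76%, although its own level moved little. With no division by length, CDKN1B led in DMSO, at 74.2 CPM against 62.1 for CDKN2C. The sum over the 7 genes was 47.1 CPM per kb in DMSO and 191.7 in SGSS05-NS, a ratio of 4.07. Without CDKN1A, the sum over the other 6 genes was 41.2 and 42.5 CPM per kb, a ratio of 1.03, and CDKN1A made up 99.1% of the increase. Of these 6 genes, CDKN2C fell in value, from 20.6 to 18.5 CPM per kb. The others rose in value, CDKN1B most, from 8.02 to 10.3 CPM per kb. These sums depend on the exon lengths used.

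**Figure D3:**
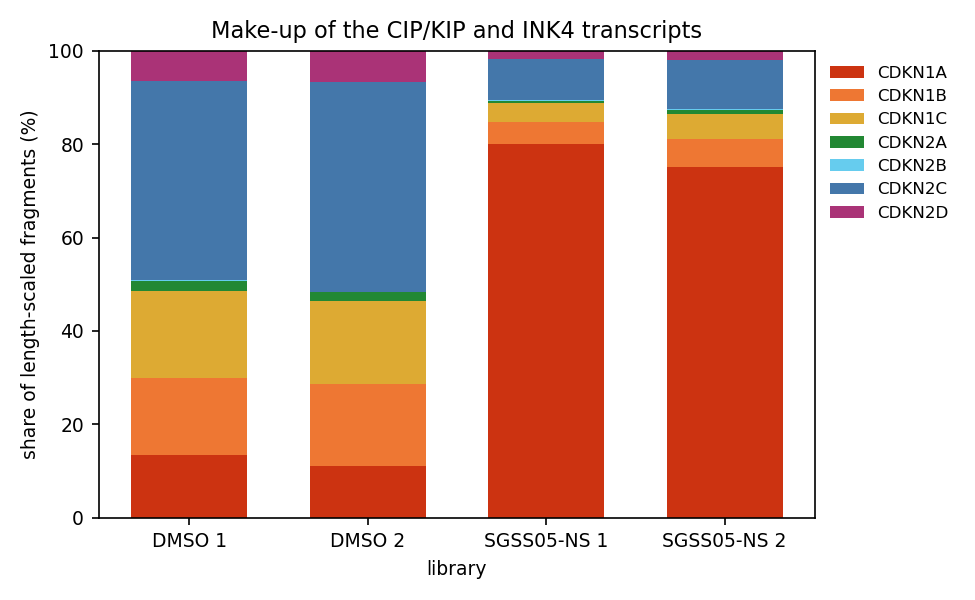
Share of each of the 7 CIP/KIP and INK4 genes in their length-scaled fragments (%), stacked for each library. CDKN1A holds 13.5% and 11.2% in DMSO and 80.0% and 75.0% in SGSS05-NS, and CDKN2C gives way from 43.7% to 9.76% on average.

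The change of CDKN1A was also set against that of each other gene within the same library, as the difference of their log2 CPM. CDKN1A minus CDKN1B was -2.09 on the log2 scale in DMSO and 2.21 in SGSS05-NS, on average, so the difference moved by 4.30. It moved by 4.62 against CDKN1C, 4.25 against CDKN2A, 2.72 against CDKN2B, 4.82 against CDKN2C, 4.54 against CDKN2D and 5.10 against CDKN3. The exact permutation p was 0.333 for each of the 7 differences, again the smallest possible. The value for CDKN2B depends on the prior count added before the log, from 2.36 to 3.15 with prior counts of 0.5 to 5, because CDKN2B has so few fragments.

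The nearest neighbours of CDKN1A did not rise with it. LAP3P2, a pseudogene within 10 kb, had 2, 3, 2 and 4 fragments, and a Y_RNA gene had 0 in all 4 libraries. SRSF3, the nearest tested protein-coding gene at lower coordinates and a splicing factor, had a log2 fold change of -0.22 (SE 0.11, adjusted p = 0.11). PPIL1, the nearest at higher coordinates, had a log2 fold change of -0.33 (SE 0.09, adjusted p = 0.014). Of the 11 tested genes within 500 kb of the start, CDKN1A included, the other gene past the threshold was BRPF3, at 0.86 (SE 0.12), and the more weakly measured PNPLA1 had a 95% interval of 1.13 to 3.68 (adjusted p = 0.0057). For the remaining members, GPR19 overlaps CDKN1B on the opposite strand and had a log2 fold change of 0.68 (adjusted p = 0.0027), larger in value than that of CDKN1B. FAF1, 478 bases from CDKN2C on the opposite strand, fell by 0.81 on the log2 scale (SE 0.12, adjusted p = 0.00023). MTAP, the nearest tested protein-coding gene at coordinates below CDKN2A, had -0.52 (adjusted p = 0.0038), and the antisense CDKN2B-AS1 had only 4, 2, 8 and 3 fragments and was not tested.

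**Figure D4:**
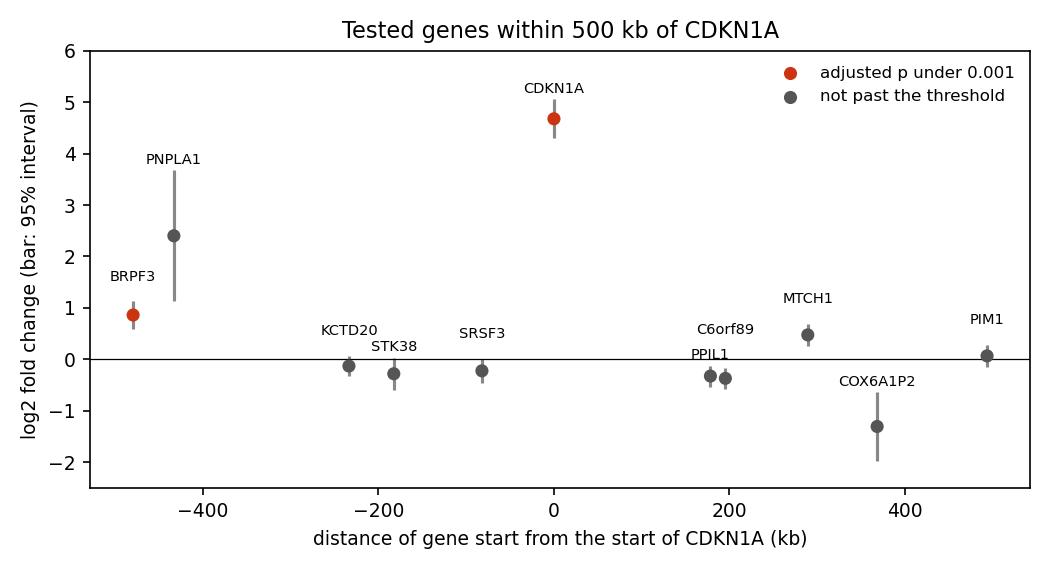
Log2 fold change of the 11 tested genes within 500 kb of CDKN1A against the distance of their start from that of CDKN1A (kb), with bars for the 95% interval and red for an adjusted p under 0.001. CDKN1A at 4.68 and BRPF3 at 0.86 are the genes in red, and SRSF3 (-0.22) and PPIL1 (-0.33) sit near 0.

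The 5 called genes whose profile over the 4 libraries was nearest to that of CDKN1A were named by the Euclidean distance of log2 CPM centred on the DMSO mean. FAS, the death receptor and a known p53 target, was nearest at a distance of 0.249, with 0.638 and 0.428 CPM in DMSO and 15.5 and 13.4 CPM in SGSS05-NS. FOXJ1, a factor of ciliated cells, was at 0.597, with 0 CPM in both DMSO libraries and 1.67 and 1.87 CPM in SGSS05-NS. GRIN2C, an NMDA receptor subunit, was at 0.617, DDIT3, a stress-induced factor also called CHOP, at 0.698, and IL6R, the interleukin-6 receptor, at 0.726. Of these, DDIT3 had the highest level, with 2.75 and 2.82 CPM in DMSO and 58.6 and 77.7 CPM in SGSS05-NS. The distance of FOXJ1 depends on the prior count added before the log, since FOXJ1 had no fragment in DMSO, and its fitted log2 fold change was 8.39 against 4.68 for CDKN1A.

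The partners of the inhibitors tended to be lower. Of 12 tested genes for the cyclins and CDKs that the inhibitors bind, 4 fell and none rose, beside 8.14% and 6.37% of all tested genes. This list and the gene lists below were written with earlier results of these data known, so their counts are not independent of them. The median log2 fold change of the 12 genes was -0.33, beside 0.01 for all genes. CDK6, a kinase bound by the INK4 proteins, fell from 827 and 1023 CPM in DMSO to 448 and 446 CPM in SGSS05-NS (log2 fold change -1.05, SE 0.11, adjusted p = 2.0e-05). CCNB1 and CCNB2, the mitotic cyclins B, fell by 0.80 and 0.64 on the log2 scale, and CCNA2, a cyclin of S phase and mitosis, fell by 0.61. CDK4, the other target of INK4 proteins, had -0.23 (adjusted p = 0.053), CDK2 had -0.16 (adjusted p = 0.23) and CCND3, a D-type cyclin, had 0.50 (adjusted p = 0.0024), none past the threshold. CCNE2, a cyclin of the entry into S phase, had 0.15 (adjusted p = 0.26).

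Of 19 tested genes for RB and E2F factors, 1 rose and 3 fell, beside 6.37% and 8.14% of all tested genes, with a median of -0.16. E2F7, a repressor and itself a p53 target, rose by 1.05 (SE 0.14, adjusted p = 0.00011). TFDP2 and TFDP1, the dimer partners of E2F, fell by 0.78 and 0.53 on the log2 scale, and LIN52, a subunit of the DREAM complex, fell by 0.68. RB1 had -0.50 (adjusted p = 0.0014) and E2F6, another repressor, had 0.42 (adjusted p = 0.0039), both outside the threshold. Of 30 cell cycle genes under RB, E2F and DREAM, 9 fell and 1 rose, with a median of -0.40. BUB1B, a kinase of the spindle checkpoint, fell by 0.95, and TOP2A, the topoisomerase of dividing cells, fell by 0.74 on the log2 scale (adjusted p = 8.4e-05 and 0.00015). CDT1, a licensing factor of DNA replication, rose by 0.61 (adjusted p = 0.00092), and CDC25A, a phosphatase that activates CDKs, had 0.32 (adjusted p = 0.023).

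CDKN1A rose together with other p53 target genes of growth arrest. Of 16 tested genes on that list, 15 rose and none fell, beside 6.37% and 8.14% of all tested genes. Their median log2 fold change was 1.85. Like the others, this list was written with earlier results of these data known, so its direction is not independent of them. SESN2, a stress-induced regulator of mTORC1, was at 7.33 and 6.51 CPM in DMSO and at 91.8 and 103.4 CPM in SGSS05-NS (log2 fold change 3.82, SE 0.12, adjusted p = 2.2e-09). BTG2, an antiproliferative gene, rose by 3.98 (SE 0.14, adjusted p = 4.8e-09). The gene that did not pass was CCNG2, at 0.23 (adjusted p = 0.10). SFN and RPRM were too low to be tested, with 1, 1, 7 and 6 fragments for SFN and 0, 0, 3 and 4 for RPRM. GADD45B, a stress-induced gene of growth arrest and DNA damage named after its values were seen, had 1 and 2 fragments in DMSO and 204 and 391 in SGSS05-NS. Its fitted log2 fold change of 7.59 (SE 0.50, adjusted p = 4.9e-07) rests on those few DMSO fragments and was above the 4.68 of CDKN1A, whereas SESN2 and BTG2 were below it. E2F7 stands on this list and on that of the E2F factors.

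**Figure D5:**
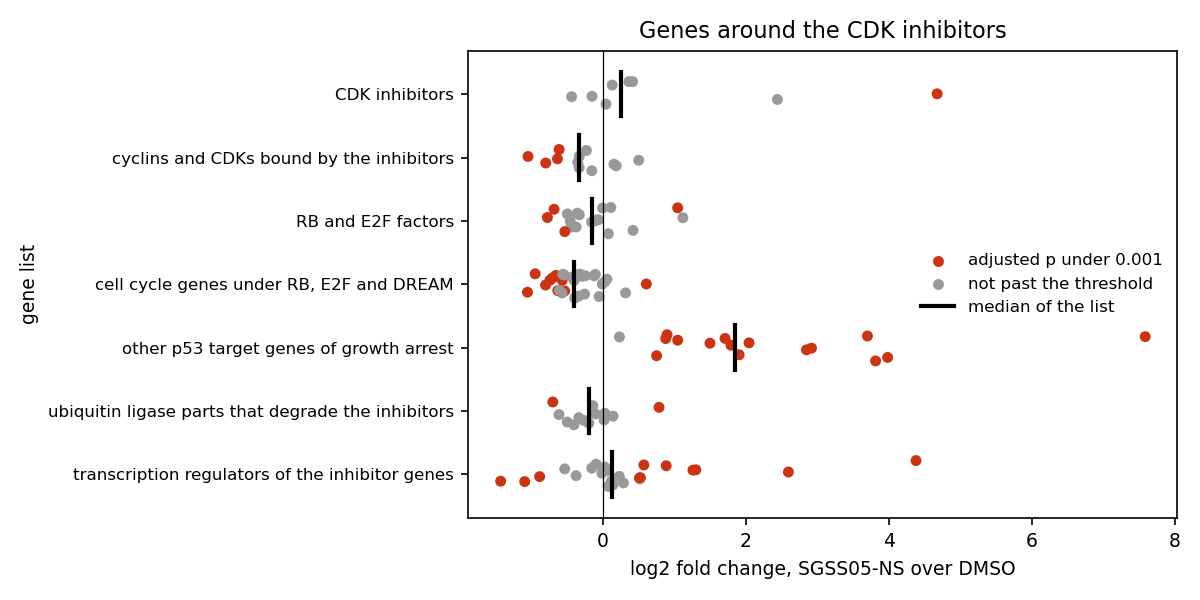
Log2 fold change of every tested gene in the 7 gene lists, SGSS05-NS over DMSO, with points for genes, red for an adjusted p under 0.001 and black lines for the median. The list of other p53 targets has a median of 1.85, that of cell cycle genes -0.40, and CDKN1A is the isolated red point of the CDK inhibitors.

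The proteins of these genes are also controlled by degradation and transcription. Of 13 genes for ubiquitin ligase parts that degrade the inhibitors, 1 rose and 1 fell, which is close to the 6.37% and 8.14% of all tested genes. SKP2, the subunit that marks p27 and p21 for degradation, fell from 147 and 137 CPM to 88.1 and 86.6 CPM (log2 fold change -0.70, SE 0.09, adjusted p = 9.4e-05). FBXL12, an F-box protein, rose by 0.79 (SE 0.13, adjusted p = 0.00050). CKS1B, the cofactor of SKP2, had 0.14 (adjusted p = 0.23), and DTL, the receptor that directs p21 to CUL4, had -0.41 (adjusted p = 0.0042). Protein was not measured in these libraries.

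Of 24 tested regulators of the inhibitor genes, 8 rose and 3 fell, beside 6.37% and 8.14% of all tested genes, with a median of 0.13. EGR1, an immediate early factor, rose from 1.55 and 1.46 CPM to 23.2 and 39.7 CPM (log2 fold change 4.38, SE 0.27), and CEBPB, a stress-responsive factor, rose by 2.60 (SE 0.18). MYC, a repressor of CDKN1A and CDKN2B, fell by 1.09 on the log2 scale (SE 0.13, adjusted p = 4.6e-05), and ETS1, an activator of CDKN2A, fell by 0.89 (SE 0.10). ETS2, on the same list, went the other way and rose by 1.30 (SE 0.10, adjusted p = 1.8e-06). The third gene that fell was MYCN, from 6.22 and 6.76 CPM to 1.98 and 2.81 CPM. KMT5A, which encodes SETD8, rose by 0.57 (SE 0.09, adjusted p = 0.00037). The transcript of the target of an inhibitor of enzyme activity does not check the labels.

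Depth was similar across libraries, with 21463105 to 25350204 fragments on genes. Fragments outside annotated exons made up 12.3% to 12.4% in DMSO and 15.3% to 16.1% in SGSS05-NS, and their part in these results was not tested. Among all tested genes, 6.37% rose and 8.14% fell, which is the share to set beside each count of markers. Of 11 tested markers of adrenergic neuroblastoma, 8 fell with SGSS05-NS. The summed level of that list was 4944 to 5351 CPM in DMSO and 2982 to 3040 CPM in SGSS05-NS. DBH and CHGA were present in every library, while TH was at 2, 2, 1 and 0 fragments. The mesenchymal list, where 2 of 10 rose and 1 fell, summed to 266 to 294 CPM in DMSO and 226 to 237 CPM in SGSS05-NS. Fibroblast markers, where 2 of 6 fell, summed to about 239 CPM in DMSO and 116 to 139 CPM in SGSS05-NS. Most of this sum came from the 2 genes that fell, PDGFRA (159 CPM in DMSO and 73.8 in SGSS05-NS) and PDGFRB (73.4 and 48.3). Each other fibroblast marker averaged at most 2.52 CPM in DMSO, with DCN at 0 in all libraries. Endothelial and immune markers were too low to be tested and summed to under 0.5 CPM in each library, and epithelial markers, of which 2 were tested and neither passed, summed to 1.91 to 3.61 CPM. The part of the falling adrenergic markers and of PDGFRA and PDGFRB in the change of the CDK inhibitors was not tested.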

How the data were processed

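RNA-seq of SY5Y cells was analysed in 4 libraries, 2 of DMSO and 2 of SGSS05-NS. Per the labels and the methods, the authors trimmed paired reads of 125 bases (Trimmomatic 0.30) and aligned them with STAR 2.4.2a to the hg19 genome. The deposited values are raw counts per gene (GENCODE 19) in 3 columns, namely without strand, forward and reverse. The reverse column was used, since the kit in the methods marks strand (the labels name a TruSeq RNA kit). The 4 summary rows were left out. The study tested with the likelihood ratio test of edgeR 3.10.5. The labels give 3 µM. The study's methods and labels do not give the same dose throughout.

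Here genes passing filterByExpr were tested with edgeR 4.0.16 (quasi-likelihood F-test, TMM, R 4.3.3) and Benjamini-Hochberg adjustment over 16468 genes, at a threshold of 0.001. The SE is the size of the log2 fold change divided by the square root of F. DESeq2 1.42.0 and limma 3.58.1 (voom) were alternatives. Gene names and lengths matched 55538 of 57820 IDs. Replicates differed by more than sampling noise (chi-square divided by its degrees of freedom, 8.76 in DMSO and 11.8 in SGSS05-NS) and were counted as separate samples. The fit was tested on simulated data, where it recovered fewer changed genes than first required, and the requirement was then lowered with the fit left as it was.

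Genes named are the 8 members, for each list the 2 smallest p in each direction, neighbours, the 5 profiles nearest to CDKN1A, and KMT5A. Some genes of the lists are not reported here by name. All other genes named were picked once their values were known. They include further called genes, BRPF3, PNPLA1, CDK4, CDK2, RB1 and CCNG2. The untested or marker genes among them are SFN, RPRM, TH, DBH, CHGA, PDGFRA, PDGFRB and DCN. The members and lists were chosen with earlier results of these data known.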

Additional observations from a re-analysis of the deposited data

Results flagged for a closer look

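Fragments on the strand opposite to CDKN1A were counted 0 and 0 times in the DMSO libraries and 9 and 17 times in the SGSS05-NS libraries, 26 in all, in a column that the comparisons do not use. They made up at most 0.193% of the fragments of the gene on both strands.

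For CDKN3, the opposite strand had 6 and 1 fragments in DMSO and 18 and 24 in SGSS05-NS, a log2 fold change of 2.335 (SE 0.53, adjusted p = 0.0018 with edgeR over 7200 genes of that column), while CDKN3 itself had -0.44. They made up 0.164% to 5.05% of the fragments of CDKN3 on both strands. CNIH1, on the opposite strand 3343 bases beyond the end of CDKN3, was at 58.2 CPM in DMSO and 65.9 CPM in SGSS05-NS. The source of the opposite-strand fragments was not tested. The fit of the opposite strand was added after the data were seen.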

How the results depend on the processing

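CDKN1A kept its direction and its call in all 13 alternatives, with a log2 fold change of 4.41 to 4.90 when each library was left out in turn. In those 4 fits, where 1 group has a lone library assumed to vary like the other group, 1 member was called each time, 2359 to 2838 genes were called, and the difference in the CDKN1A share was 62.7 to 67.6 points. The number of members called was 2, with CDKN2B added, with the likelihood ratio test (4289 genes called), with no low-count filter (4604 genes) and with the replicate block (3766 genes), and it was 4 at an adjusted p under 0.05 (7631 genes). The cause was not tested. The share difference was 61.0 without division by length. CDKN1C, not called, had a log2 fold change of -0.0015 with counts taken without regard to strand, and -0.049 to 0.11 when each library was left out (-0.049 without DMSO replicate 2). CDKN2B could not be tested with at least 10 counts in every library, and its adjusted p ranged from 2.7e-05 to 0.025 elsewhere. Whether same-numbered libraries form pairs is not known. The correlation of their deviations was 0.05 over 2 pairs and 16468 genes, which does not decide it. No other member changed its call at 0.001 under any alternative. Few fragments limit CDKN2B, and 2 libraries per group limit every interval.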
